A study of Rattus norvegicus with 32 samples.

Results

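The 30 genes described here make cholesterol from acetyl-CoA, sense sterols in the endoplasmic reticulum, or carry, store and read out sterols in the cell. They were taken by symbol from the table of read counts, where all 30 of the listed symbols stood among 17327 genes, and all 30 passed the filter on low counts that left 11002 genes to test. By role, 8 belonged to the early mevalonate steps, 3 to the squalene and lanosterol steps, 8 to the steps after lanosterol, 6 to sterol sensing, and 5 to transport, storage and the oxysterol receptor; the first 3 roles are the 19 enzymes counted below. The livers came from 32 rats of the Sprague Dawley stock, with RNA-seq of messenger RNA and 4 animals in each of 8 groups: wild-type (WT) and knockout (KO) females and males at 30 and at 60 days of age, under basal conditions. The KO rats carry Cbg-/-, a loss of Serpina6 made with CRISPR/Cas9 in the whole animal; Serpina6 encodes corticosteroid-binding globulin (CBG), the plasma carrier of corticosterone. The sources used here give neither the number of founder lines nor the feeding state or hour of collection. The series asks what CBG does in the liver, and its title names the sex difference of adult liver. Levels are CPM, the share of a library's gene reads scaled to a common total after TMM scaling between libraries, error terms of levels are SD with n = 4, and fold changes are on the log2 scale with their SE.

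Liver makes much of the cholesterol of the body. When sterols in the endoplasmic reticulum are low, the escort protein encoded by Scap carries the factor encoded by Srebf2 to the Golgi, where the proteases of Mbtps1 and Mbtps2 cut it, and the freed part switches on the genes of cholesterol synthesis; the proteins of Insig1 and Insig2 hold the escort back when sterols are plentiful. The pathway starts with acetyl-CoA, passes through mevalonate and isoprenoid diphosphates to squalene and lanosterol, and ends with the trimming and reduction of lanosterol to cholesterol.

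The start regions of the 4 genes with the smallest adjusted p among those in the promoter table (KO against WT, 60-day females, below) are printed because all 4 fell together in those animals. Each line gives the 250 bases before the start site in the RefSeq promoter table, build GRCr8, 5′ to 3′ on the gene's strand. Hmgcs1 lies at chr2:53382054-53382303 on the plus strand, Cyp51 at chr4:30991443-30991692 on the plus strand, Idi1 at chr17:66547525-66547774 on the minus strand, and Dhcr7 at chr1:208444184-208444433 on the plus strand. Capitals mark the NF-Y box (CCAAT) and the GC box (GGGCGG), searched on both strands, so that ATTGG and CCGCCC are the same boxes read from the other strand.
Hmgcs1: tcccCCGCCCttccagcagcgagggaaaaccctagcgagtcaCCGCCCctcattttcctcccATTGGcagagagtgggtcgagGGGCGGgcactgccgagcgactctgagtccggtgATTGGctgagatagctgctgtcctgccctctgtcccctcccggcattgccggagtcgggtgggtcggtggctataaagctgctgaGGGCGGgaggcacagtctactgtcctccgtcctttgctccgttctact
Cyp51: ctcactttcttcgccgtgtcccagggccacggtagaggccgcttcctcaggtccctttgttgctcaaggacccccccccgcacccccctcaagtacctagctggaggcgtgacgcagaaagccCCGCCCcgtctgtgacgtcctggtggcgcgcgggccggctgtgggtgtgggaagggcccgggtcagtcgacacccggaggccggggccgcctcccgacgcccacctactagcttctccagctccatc
Idi1: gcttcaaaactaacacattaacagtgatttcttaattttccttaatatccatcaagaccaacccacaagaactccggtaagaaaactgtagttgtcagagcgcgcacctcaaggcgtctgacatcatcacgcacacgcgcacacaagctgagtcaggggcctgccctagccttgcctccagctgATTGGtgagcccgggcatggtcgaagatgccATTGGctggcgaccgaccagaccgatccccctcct
Dhcr7: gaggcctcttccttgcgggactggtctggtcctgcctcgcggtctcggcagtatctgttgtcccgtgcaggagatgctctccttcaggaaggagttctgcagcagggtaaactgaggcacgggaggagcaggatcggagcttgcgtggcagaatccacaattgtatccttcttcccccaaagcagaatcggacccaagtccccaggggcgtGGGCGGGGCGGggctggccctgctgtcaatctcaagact
The region of Hmgcs1 held 2 NF-Y boxes and 4 GC boxes, that of Idi1 held 2 NF-Y boxes, that of Cyp51 held 1 GC box, and that of Dhcr7 held 2 GC boxes that share a base. In the full 300-base windows of the table, which run on to 50 bases after the start, 25 of the 30 genes had an entry; Fdft1, Stard4, Soat2, Pmvk and Sqle had none. An NF-Y box stood in 17 of the 25, against 37.5% of all 33469 promoters, and a GC box in 19 of the 25, against 33.1%. Both boxes stood in 13 of the 25, against 11.8% of all promoters. The E-box CACGTG stood in 3 of the 25, against 6.42%. The core TCACNCCAC, 1 written form of the sterol regulatory element, stood in 0 of the 25 and in 1.12% of all promoters. These matches describe letters in a window, and no binding was measured.

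Serpina6 was low in every KO library. Its level lay between 25.5 and 131 CPM in the 16 KO libraries and between 421 and 1358 CPM in the 16 WT libraries, so that genotype labels and levels matched throughout. Gene reads ran from 12951969 to 21954929 per library, and the lowest 30-day library, at 16806943, was near the highest 60-day library, at 17133332. A list of 6 hepatocyte markers summed to between 194647 and 287827 CPM. No label is named as a batch. The titles of the 30-day libraries carry a number, 1 or 2, whose meaning is not given: 2 in all 4 KO females and in 1 of the 4 WT females (replicate 4), 2 in 1 of the 4 KO males (replicate 4), and 2 in 2 of the 4 WT males. Of the 60-day KO females, replicate 1 held retina transcripts at a sum of 1800.5 CPM, where the other 31 libraries held 1.95 to 9.29 CPM. Each count of members by the main edgeR fit that uses that group is therefore also given without it. Counts under the other methods and settings were not repeated without it.

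The 19 enzymes tended to be high or low in the same animals of a group. In 60-day WT females, replicate 4 had the highest level of 18 of the 19 enzymes, and in 30-day KO males replicate 4 had the lowest level of all 19. The median within-group SD of the enzymes in 60-day WT females was 0.44 on the log2 scale, against 0.19 for all tested genes in the same libraries. Summed over the 19 enzymes, the 60-day WT females held 4056, 5695, 4148 and 8199 CPM, and the 60-day KO females held 2576, 2699.9, 3035 and 3253 CPM. These groups did not overlap. The 60-day WT males held 2585, 2987, 3268 and 2257 CPM and the 60-day KO males 2621, 2650.4, 2759 and 2171 CPM, which overlapped each other and the KO females. At 30 days the sums were 3927 to 4938 CPM in WT females, 5325 to 7489 CPM in KO females, 4625 to 5232 CPM in WT males and 4512 to 7259 CPM in KO males. The females did not overlap there, with KO above WT, while the males did.

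**Figure D1:**
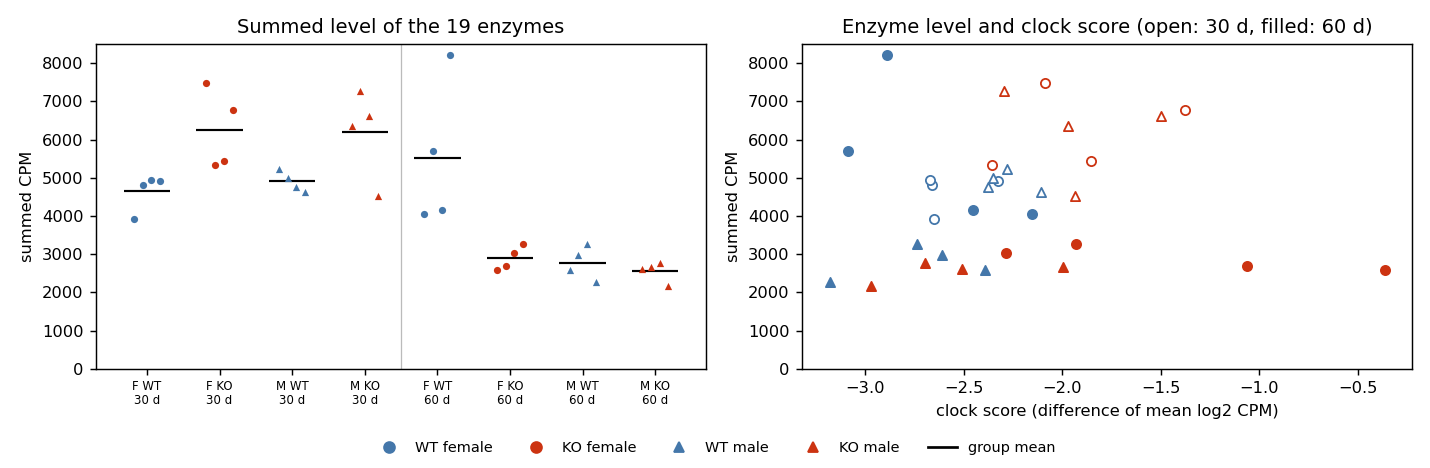
Left, summed level of the 19 enzymes in CPM in each of the 32 libraries by group (F female, M male, age in days; black line, group mean). Right, the same sums against a clock score (open for 30 days, filled for 60 days). The score is the mean log2 CPM of clock genes, among them Dbp, Tef, Per2, Per3 and Nr1d1, minus that of Arntl, Npas2 and Clock. These last 3 have the opposite phase. In 60-day KO females the 2 libraries with the highest clock scores, -0.36 (replicate 1, with retina transcripts) and -1.06, have the lowest sums of that group, 2576 and 2699.9 CPM. In 60-day WT females the 2 libraries with the highest scores, -2.15 and -2.45, also have the lowest sums of their group, 4056 and 4148 CPM. In 60-day males it is the library with the lowest score that has the lowest sum, in WT (-3.18, 2257 CPM) and in KO (-2.97, 2171 CPM).

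In 60-day females, loss of CBG went with lower transcripts for enzymes from the first step of the route to the last. Of the 30 genes 14 fell and 0 rose, where 3.29% of all tested genes fell and 3.48% rose (edgeR quasi-likelihood test, Benjamini-Hochberg adjusted p below 0.05). All 19 enzymes had negative fold changes, 12 of them past the threshold, with a median of -0.75, beside 0.0082 for all tested genes. The fall was largest in Idi1, Hmgcs1 and Sqle, at 0.27, 0.298 and 0.345 of the WT level. Sums of 4 cholangiocyte markers did not overlap between these groups, at 12.1 to 16.0 CPM in WT and 16.1 to 20.2 CPM in KO, with 1 of the 4 higher past the threshold. Sums of the 6 stellate markers were 229.7 to 381 CPM in WT and 379 to 402 CPM in KO, and those of the hepatocyte markers 201694 to 287827 and 252988 to 281375 CPM, both with 0 of 6 called. The part of these markers in the fall was not tested. Bulk RNA cannot tell fewer cells of a type from less RNA per cell.

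Among the early mevalonate genes 5 of 8 fell. Hmgcs1, the cytosolic HMG-CoA synthase, stood at 689, 1561, 853 and 2257 CPM in the WT and at 340.3, 374, 465 and 416 CPM in the KO females. Every KO value lay below every WT value, and the WT values themselves spread widely, with replicates 2 and 4 high. The log2 fold change was -1.75 ± 0.24 SE, with an adjusted p of 6.15e-05. Idi1, which converts isopentenyl diphosphate into its reactive isomer, stood at 87.9, 222, 121 and 341 CPM in WT and 40.5, 40.9, 66.0 and 60.4 CPM in KO, a change of -1.89 ± 0.33 SE, adjusted p 0.0011. The same WT animals were high for it, and again the groups did not overlap. Acat2, the cytosolic thiolase of the first step, went from 26.1, 34.7, 25.98 and 63.1 CPM in WT to 12.1, 13.9, 18.9 and 25.6 CPM in KO (-1.08, adjusted p 0.0167), with KO replicate 4 just under the lowest WT value. Mevalonate kinase (Mvk) and mevalonate diphosphate decarboxylase (Mvd) changed by -0.75 and -1.03, adjusted p 0.0117 and 0.0312. The libraries of Mvk overlapped by 1 animal, KO replicate 3. The other 3 did not pass: Fdps, the farnesyl diphosphate synthase, at -0.46 (adjusted p 0.187), Pmvk, the phosphomevalonate kinase, at -0.35 (0.302), and Ggps1, which leaves the route for geranylgeranyl diphosphate, at -0.081 (0.77).

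Transcripts for squalene synthesis and epoxidation fell as well. Fdft1, the squalene synthase, stood at 219.6, 314, 217 and 389.6 CPM in WT and 145, 164, 189.8 and 178 CPM in KO (-0.75 ± 0.14 SE, adjusted p 0.00156). Sqle, the squalene epoxidase, stood at 49.6, 115, 62.4 and 155 CPM in WT and 24.1, 26.8, 39.7 and 41.4 CPM in KO (-1.53 ± 0.31 SE, adjusted p 0.00405). Neither gene overlapped between genotypes. Lss, the lanosterol synthase that closes the rings, behaved differently among WT animals, at 91.8, 36.5, 53.8 and 155 CPM, so that WT replicate 2 lay below all 4 KO values of 58.9, 48.6, 66.5 and 84.8 CPM, and its change of -0.38 ± 0.32 SE did not pass (adjusted p 0.546).

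Of the 8 genes after lanosterol 5 fell. Cyp51, the lanosterol demethylase, stood at 529.5, 776, 617 and 1057 CPM in WT and 280.4, 318, 355 and 391 CPM in KO (-1.15 ± 0.18 SE, adjusted p 0.000316). Msmo1, the methylsterol monooxygenase that follows, stood at 169, 332, 218 and 486 CPM in WT and 108, 124, 140.3 and 146 CPM in KO (-1.22 ± 0.26 SE, adjusted p 0.00528). Dhcr7, the reductase of the last step, stood at 309, 371, 259 and 525 CPM in WT and 164, 162, 235 and 235 CPM in KO (-0.88 ± 0.16 SE, adjusted p 0.00169). In all 3 the genotypes were separate. Hsd17b7, a ketosteroid reductase, changed by -0.90 (adjusted p 0.0289) with overlap, and Ebp, the sterol isomerase, by -0.56 (adjusted p 0.00655) without. Tm7sf2, a sterol reductase, and Sc5d, the desaturase before the last step, were also separate between genotypes but did not pass: -0.71 (adjusted p 0.0806) and -0.40 (0.054). Nsdhl, the sterol dehydrogenase, had the smallest difference of the 8, at -0.20 (0.281).

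**Figure D2:**
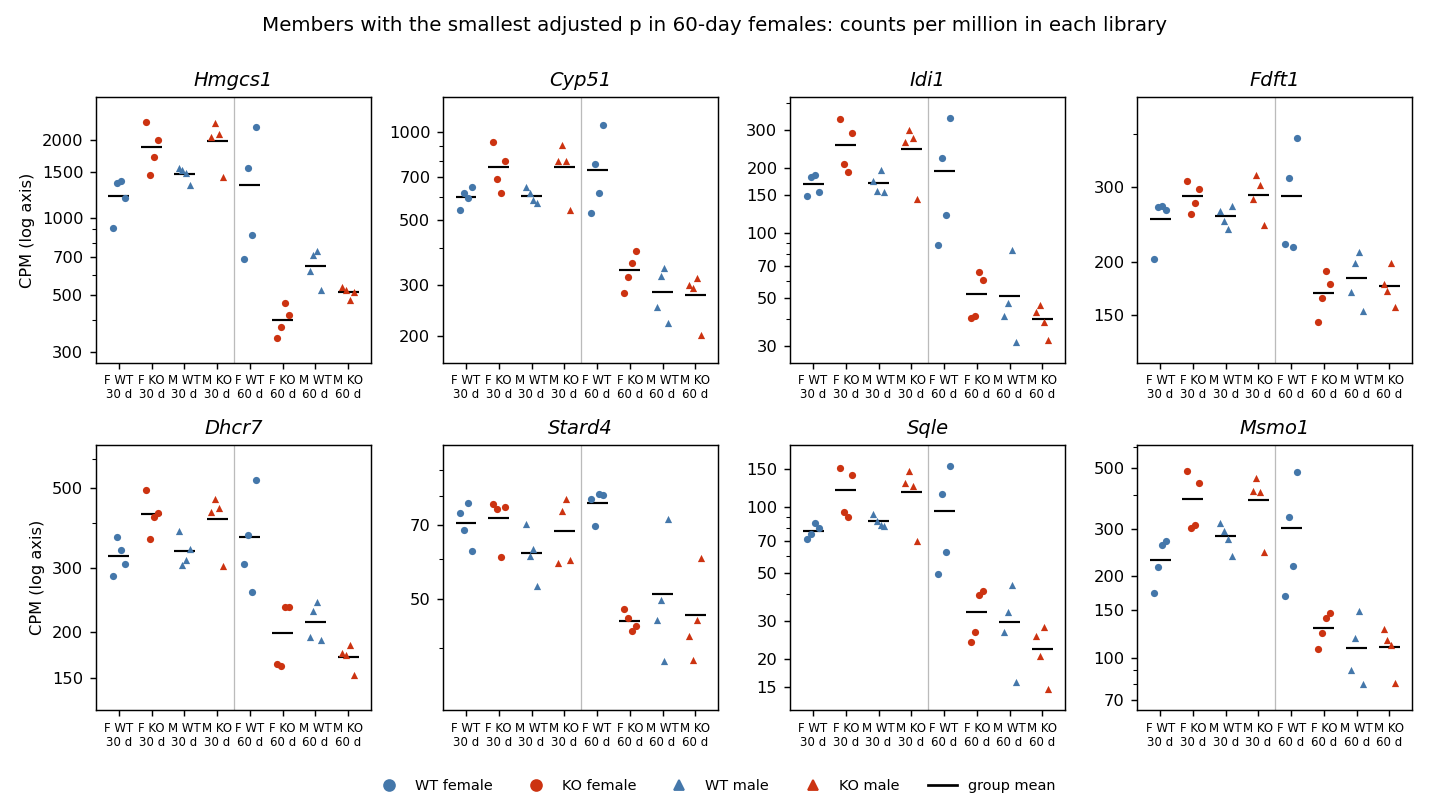
CPM (log axis) of the 8 genes with the smallest adjusted p for KO against WT in 60-day females, in each library by sex, genotype and age (circles, females; triangles, males; blue, WT; red, KO; black line, group mean). In 60-day females every red point lies below every blue one in all 8 panels. The genes were picked by this same comparison, so the separation is not a further result. The male points of both genotypes at 60 days overlap in 7 of the 8 panels, Dhcr7 being the exception.

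Of the 6 sensing genes 1 fell. Srebf2, the factor that drives the pathway, went from 129, 159, 145 and 163 CPM in WT to 101, 119, 121 and 114 CPM in KO (-0.39 ± 0.093 SE, adjusted p 0.00914), without overlap. Its escort Scap stood at 136, 109.9, 129.9 and 142 CPM in WT and 120.2, 126, 122 and 109 CPM in KO and did not pass (-0.12, adjusted p 0.522). Insig1, itself a target of the factor, stood at 501, 357, 269.9 and 586 CPM in WT and 376, 228, 289 and 339 CPM in KO. These overlapped, WT replicate 3 being lower than 3 of the KO animals, and the change of -0.48 ± 0.33 SE did not pass (adjusted p 0.435). Insig2 stood at 88.2, 102, 82.6 and 94.0 CPM in WT and 73.5, 66.9, 84.9 and 84.0 CPM in KO (-0.24, adjusted p 0.334), again with overlap. The proteases Mbtps1 and Mbtps2 were at -0.06 and -0.073, neither past the threshold.

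Of the 5 genes for transport, storage and the oxysterol receptor 1 fell. Stard4, a cytosolic sterol carrier, stood at 79.0, 69.8, 80.9 and 80.6 CPM in WT and 47.8, 46.0, 43.3 and 44.3 CPM in KO (-0.78 ± 0.15 SE, adjusted p 0.00171). Unlike the enzymes, its WT values lay close together, and WT replicate 4 did not stand out. Npc1, which exports cholesterol from lysosomes, stood at 258, 168, 167 and 191 CPM in WT and 264, 219.8, 198 and 206 CPM in KO (0.18, adjusted p 0.496). Nr1h3, the oxysterol receptor LXR-alpha, stood at 130.3, 134, 117 and 139 CPM in WT and 125, 142, 147 and 154 CPM in KO (0.13, adjusted p 0.305). Npc2, the partner of Npc1, and Soat2, which esterifies cholesterol, were at -0.13 and 0.069. All 4 overlapped between genotypes.

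Single libraries and settings moved these counts in 60-day females. DESeq2 called 16 members, among 943 calls in 12518 genes, and edgeR without a filter 15, among 803 in 14342. Sc5d was called in both (adjusted p 0.032 and 0.0499) and Tm7sf2 by DESeq2 (0.0351). Sc5d was also called without WT replicate 1 (0.0494) or 2 (0.0461). Leaving out 1 of the 8 libraries at a time gave between 10 and 15 members called, and 10 genes kept their call in all 8 fits. The count was 10 without WT replicate 4 (among 412 calls in 11096 genes) or without KO replicate 1 (among 399 in 11068). Acat2 (adjusted p 0.113 without WT replicate 4 and 0.0719 without KO replicate 1) and Mvk (0.0809 and 0.055) lost theirs in those 2 fits. Hsd17b7 also lost its call without WT replicate 2 (0.0792) or KO replicate 2 (0.0504), with 0.169 without WT replicate 4 and 0.107 without KO replicate 1. Mvd lost it without WT replicate 2 (0.0709) or 4 (0.179) or KO replicate 1 (0.0959), 2 (0.075) or 3 (0.0583). Without both WT replicate 4 and KO replicate 1, a setting chosen after seeing the data, 6 members were called: Hmgcs1, Idi1, Fdft1, Cyp51, Dhcr7 and Stard4. Calls over all 11057 genes of that fit were also fewer than the 745 of 11002 in the main fit. The drop in members thus came with a general loss of calls. In a fit to these 8 libraries alone 2 members were called, Cyp51 and Stard4, among 56 calls in 10263 genes. The fold change of Hmgcs1 was -1.75 there and its adjusted p 0.104.

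Clock transcripts differed between the same groups. Of 12 tested clock genes 4 rose in 60-day KO females (Dbp by 2.27, Per3 by 1.80, Per2 by 1.60 and Tef by 0.94) and 1 fell (Npas2, -0.54). Over all tested genes 3.48% rose and 3.29% fell. The other clock genes did not pass, among them Nr1d1 at 0.062 (adjusted p 0.974) and Per1, in the opposite direction, at -0.72 (0.193). Dbp, an output factor of the clock, stood at 33.9, 14.4, 5.23 and 5.08 CPM in the KO and at 4.80, 2.35, 2.93 and 2.00 CPM in the WT females, the highest value belonging to replicate 1, the library with retina transcripts. Without that library, a fit chosen after seeing the data, the same 4 clock genes rose, Dbp by 1.45 (adjusted p 0.0187), and 0 fell, Npas2 being at -0.52 (0.0779). That fit called 399 of 11068 genes. The clock score lay between -2.28 and -0.36 in the KO and between -3.09 and -2.15 in the WT females. At 30 days it lay between -2.36 and -1.38 in KO and between -2.67 and -2.32 in WT females. There 18 of the 19 enzymes had a positive fold change. Of the 12 clock genes 0 were called there, where 0.300% of all tested genes were. With the clock score of each library as a covariate, 2 of the 14 kept an adjusted p below 0.05, Hmgcs1 at -1.41 (adjusted p 0.0238) and Cyp51 at -0.97 (0.0418). The 12 others kept their sign, for example Idi1 at -1.49 (adjusted p 0.103) and Acat2 at -0.69 (0.387). Over all genes 112 of 11002 were called in that fit, where 745 were without the covariate. It was not repeated without KO replicate 1, which has the highest clock score. In 60-day females the score was mostly higher in KO than in WT, so the covariate fit cannot tell score and genotype apart. The part of the clock in the fall was not tested.

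In 60-day males no member passed. Of the 30 genes 0 were called, where 0.209% of all tested genes were. DESeq2 also called 0, and an unadjusted p below 0.05 was found for 2, where 10.8% of all tested genes had one. The enzymes had a median log2 fold change of -0.10. The smallest p belonged to Soat2, at 74.0, 76.2, 83.8 and 118 CPM in WT and 74.7, 62.2, 60.4 and 69.3 CPM in KO males (-0.40 ± 0.12 SE, p 0.00216, adjusted p 0.175). The WT animals were mostly higher, replicate 4 most of all, and the groups overlapped. Mbtps1 stood at 63.7, 65.6, 61.5 and 61.9 CPM in WT and 69.5, 65.9, 70.6 and 68.9 CPM in KO (0.12 ± 0.053 SE, adjusted p 0.396), KO above WT. Dhcr7 stood at 194, 229, 242 and 191 CPM in WT and 175, 173, 184 and 153 CPM in KO (-0.32 ± 0.16 SE, adjusted p 0.49), KO below WT. Neither overlapped. Hmgcs1 stood at 620.1, 716, 740.3 and 523 CPM in WT and 536, 522, 476 and 515 CPM in KO (-0.34, adjusted p 0.645), with overlap.

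No sensing or transport gene passed between genotypes in 60-day males, Soat2 and Mbtps1 of the paragraph above included. Srebf2 stood at 105, 111, 102 and 107 CPM in WT and 106, 82.4, 105 and 88.1 CPM in KO males (-0.16), and Insig1 at 313, 469, 474 and 291 CPM in WT and 352, 144, 592 and 250.4 CPM in KO (-0.21). Insig1 ranged more widely among the KO males, where replicate 2 was low and replicate 3 high, than any difference between the group means. Stard4 stood at 45.5, 49.8, 37.6 and 72.1 CPM in WT and 42.2, 37.9, 45.5 and 60.3 CPM in KO (-0.14) and Nr1h3 at 139.5, 136, 154 and 148 CPM in WT and 138, 144, 139 and 139.7 CPM in KO (-0.044). All 4 genes overlapped between genotypes.

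The difference between the sexes in the response to KO at 60 days was tested by itself and did not pass for any member. Of the 30 genes 0 were called in this interaction, where 0.136% of all tested genes were, and 13 had an unadjusted p below 0.05, where 10.6% of all tested genes had. All 19 enzymes had a positive difference, the male response minus the female response, with a median of 0.62 beside -0.015 for all tested genes. The smallest p belonged to Cyp51 (1.11 ± 0.26 SE, p 0.000164, adjusted p 0.089), and Hmgcs1 followed (1.40 ± 0.33 SE, adjusted p 0.0903). DESeq2 called 2 members, Hmgcs1 (1.41, adjusted p 0.00727) and Cyp51 (1.12, adjusted p 0.00706), among 90 calls in 10662 genes. Without WT female replicate 1, edgeR called 5 members: Hmgcs1 (adjusted p 0.00356), Cyp51 (0.00794), Fdft1 (0.0354), Idi1 and Msmo1 (0.0366 each), among 126 calls in 11104 genes. It called Stard4 without WT male replicate 4 (0.0448, among 15 calls in 11099 genes), Cyp51 without KO male replicate 4 (0.0366, among 18 in 11103) and 0 members without KO female replicate 1 (13 calls in 11068 genes).

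**Figure D3:**
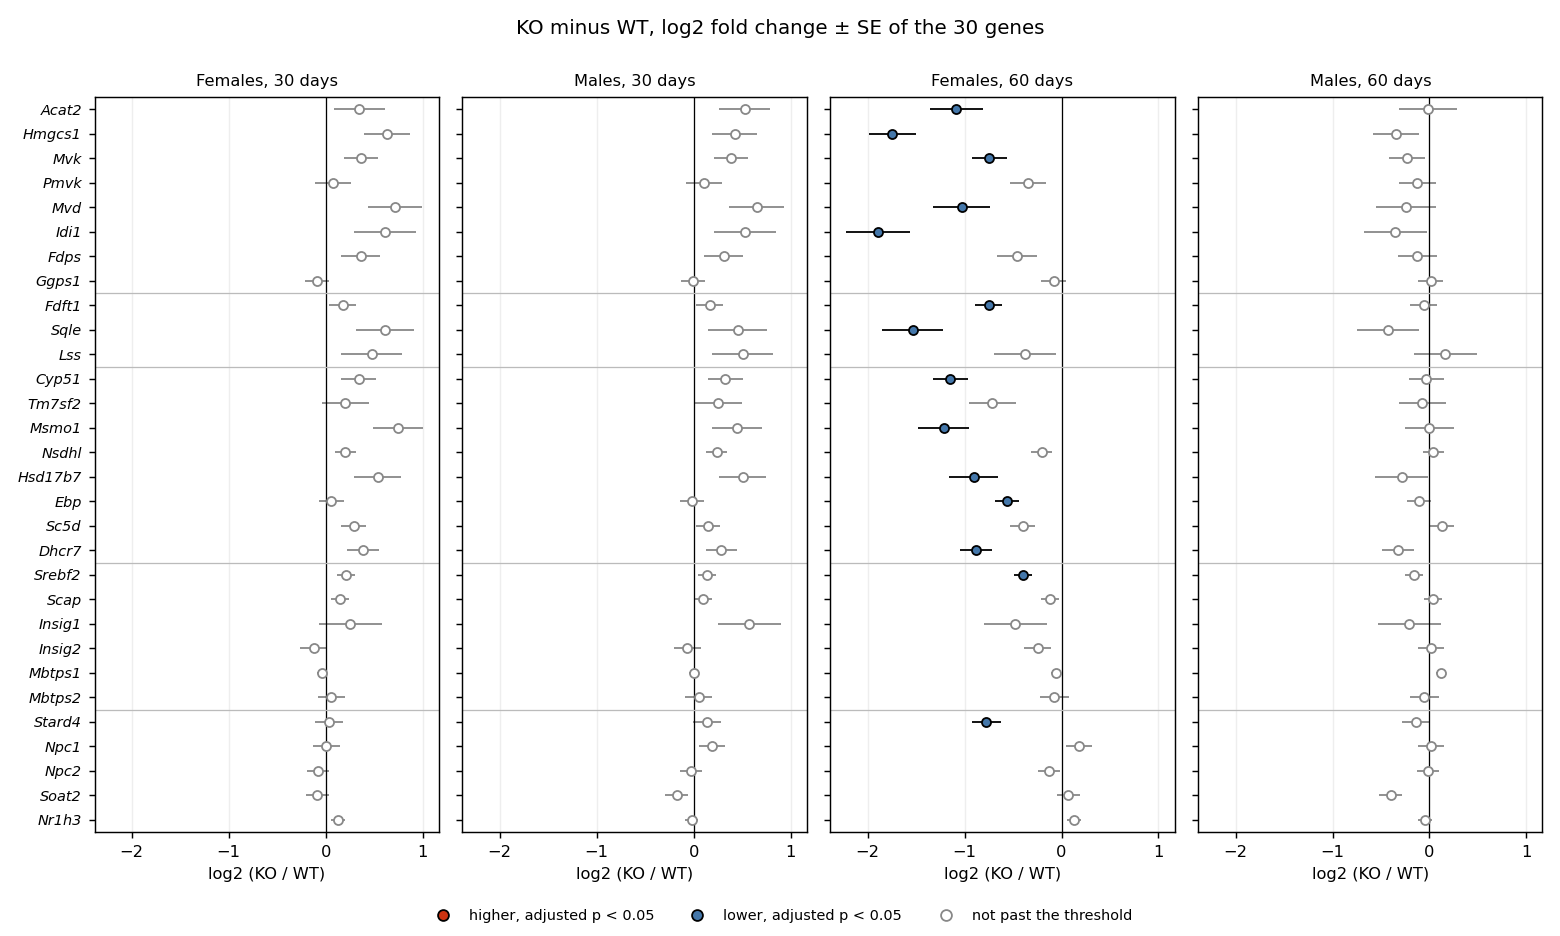
Log2 fold change of KO against WT with its SE for the 30 genes, ordered by role from the first enzyme (top) to the oxysterol receptor (bottom), in each sex and age; filled points passed an adjusted p of 0.05. Blue points, lower in KO, appear in 60-day females, where 14 of 30 genes passed, and the other 3 panels hold 0.

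At 30 days the enzymes leaned the other way without passing the test. In 30-day females 0 of the 30 genes were called, where 0.300% of all tested genes were, although 8 had an unadjusted p below 0.05, where 10.7% of all tested genes had, and 18 of the 19 enzymes had a positive fold change, with a median of 0.36 beside 0.010 for all tested genes. DESeq2 called 0. Msmo1 had the smallest p, at 174, 216, 261 and 269.5 CPM in WT and 489.6, 302, 311 and 443 CPM in KO (0.75 ± 0.26 SE, p 0.00706, adjusted p 0.259). Hmgcs1 stood at 914, 1369, 1394 and 1191 CPM in WT and 2356, 1462, 1724 and 2009 CPM in KO (0.63 ± 0.24 SE, adjusted p 0.298). In both genes every KO female lay above every WT female. Mvd stood at 25.6, 27.4, 35.1 and 32.4 CPM in WT and 66.6, 33.4, 33.9 and 63.9 CPM in KO (0.71 ± 0.28 SE, adjusted p 0.332), with overlap, KO replicates 1 and 4 being high. A list of 6 stellate cell markers summed to between 980.2 and 1339 CPM in these WT and between 782 and 926 CPM in these KO females, with 1 of the 6 lower past the threshold, and the hepatocyte markers summed to 222519 to 244083 CPM in WT and 194647 to 220854 CPM in KO, with 0 of 6 called. The part of these markers in the values was not tested. With the title number as a covariate the changes were 0.75 for Msmo1, 0.73 for Hmgcs1 and 0.85 for Mvd, and 0 members were called. No KO female carries the number 1, so values within that number cannot be given.

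In 30-day males 0 of 30 were called by edgeR and 0 by DESeq2, where 0.0545% of all tested genes were called by edgeR, and 4 had an unadjusted p below 0.05, where 5.94% of all tested genes had. The median of the enzymes was 0.33. Mvd stood at 33.2, 30.1, 29.3 and 26.1 CPM in WT and 53.3, 56.5, 53.0 and 23.7 CPM in KO (0.65 ± 0.28 SE, adjusted p 0.758). Mvk stood at 37.0, 33.6, 34.1 and 29.7 CPM in WT and 45.1, 53.2, 45.3 and 32.3 CPM in KO (0.39 ± 0.17 SE, adjusted p 0.783), and Nsdhl at 417, 455, 428 and 388 CPM in WT and 487, 543, 510.0 and 447 CPM in KO (0.24 ± 0.11 SE, adjusted p 0.798). For Mvd and Mvk, KO replicates 1 to 3 lay above all WT males and replicate 4 among or below them, and Nsdhl overlapped as well. KO replicate 4 is also the 1 KO male with the title number 2. The summed enzymes were 6359.6 to 7259 CPM in KO and 4625 to 4756 CPM in WT males with the number 1, and 4512 CPM in KO and 5005 to 5232 CPM in WT males with the number 2, so that the order of the genotypes was opposite in the 2 sets, with 1 KO library in the second. With the number as a covariate 0 members were called, Mvd being at 0.57. The interaction of sex and genotype at 30 days called 0 members, with 0 at an unadjusted p below 0.05, where 5.51% of all tested genes were, and 0 by DESeq2, and 0% of all tested genes by edgeR. Insig1 stood at 199, 277, 286 and 451 CPM in WT and 335, 399, 260.4 and 454 CPM in KO females, and at 263, 265, 185 and 247 CPM in WT and 358, 468, 380.3 and 224 CPM in KO males, with overlap in both sexes. Srebf2 lay at 118 to 133 CPM in WT females, 122 to 168 CPM in KO females, 126 to 136 CPM in WT males and 124 to 155 CPM in KO males. In the same order of groups Stard4 lay at 62.4 to 77.6, 60.6 to 77.0, 53.1 to 70.5 and 58.9 to 79.1 CPM, and Npc1 at 113 to 154, 123 to 134, 97.7 to 127 and 117 to 135 CPM. None of the 3 separated the genotypes in either sex.

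The difference between KO and WT females was not the same in the 30-day and the 60-day sets. In the interaction of age and genotype in females, the KO effect at 60 days minus that at 30 days, 15 of 30 genes were lower, where 1.55% of all tested genes were, and 0 were higher, where 1.42% were. They were 13 enzymes with Srebf2 and Stard4. Hmgcs1 differed most clearly (-2.38 ± 0.34 SE, adjusted p 0.000309), followed by Cyp51 (-1.49 ± 0.26 SE, 0.0019), Dhcr7 (-1.27 ± 0.23 SE, 0.00338), Idi1 (-2.50 ± 0.46 SE, 0.00391) and Msmo1 (-1.96 ± 0.36 SE, 0.00391). The same 60-day females enter this test and the comparison at 60 days, so the counts of both share their data. At 30 days the title number is 2 in all 4 KO females and in 1 of the 4 WT females. The interaction was not fitted with that number, so its part was not tested. Sample titles also have another form at each age, so age and any difference in handling cannot be told apart. Leaving out 1 of the 16 libraries gave 10 to 15 members called. The count was 11 without KO replicate 1 at 60 days, among 191 calls in 11068 genes. In all 16 fits 10 genes kept their call, and Acat2, Hsd17b7, Ebp, Sc5d and Stard4 did not. Without both WT replicate 4 and KO replicate 1 at 60 days 5 were called (Hmgcs1, Idi1, Cyp51, Msmo1 and Dhcr7), among 118 calls in 11057 genes. In a fit to these 4 groups alone 8 were called, among 93 in 10803. Of the 6 stellate markers 3 were higher in this interaction, and their part in it was not tested. In males the same interaction called 0 of 30, with 6 at an unadjusted p below 0.05, where 5.34% of all tested genes were, 0 by DESeq2 and 0.00909% of all tested genes called by edgeR.

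**Figure D4:**
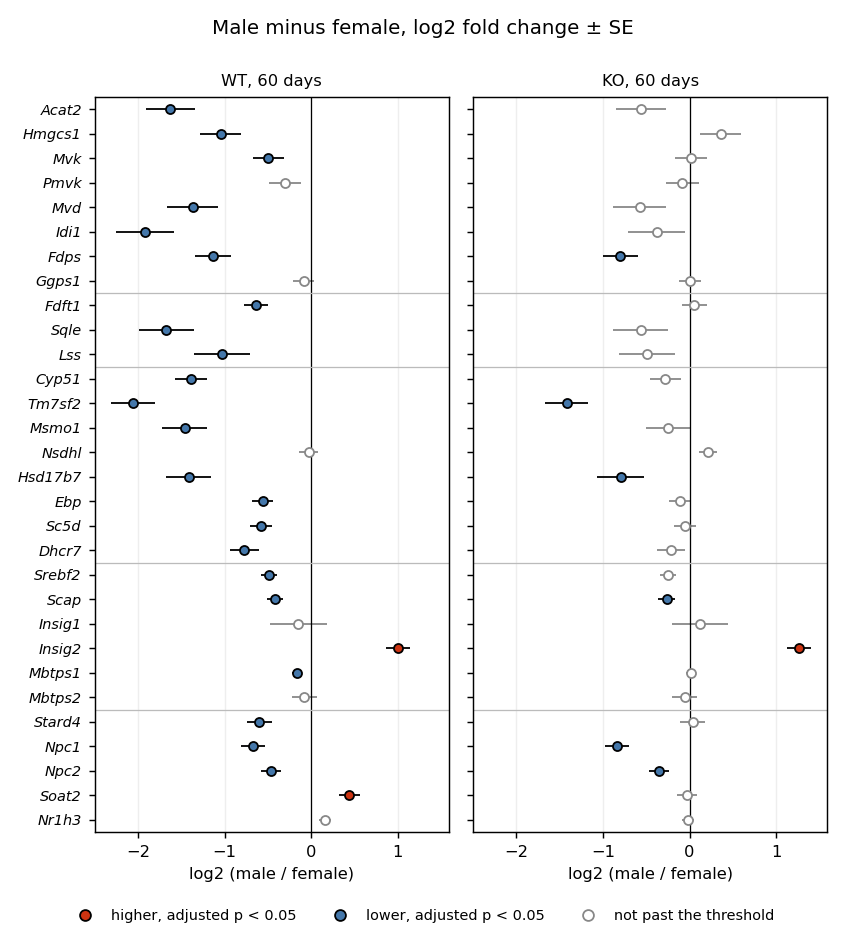
Log2 fold change of males against females at 60 days with its SE for the 30 genes, in WT (left) and KO rats (right); blue, lower in males, and red, higher in males, passed an adjusted p of 0.05. In WT 22 genes are lower and 2 higher in males, and in KO 6 are lower and 1 higher, with Insig2 on the right in both.

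WT livers of 60 days differed between the sexes along the pathway. In 60-day WT rats 22 of 30 genes were lower in males than in females, where 12.7% of all tested genes were, and 2 were higher, where 13.7% were. Of the 19 enzymes 16 were lower, and the median was -1.04. Tm7sf2 had the smallest adjusted p, at 465, 425, 403 and 639.8 CPM in females and 125, 116, 163 and 58.1 CPM in males (-2.06 ± 0.25 SE, adjusted p 5.3e-07). Cyp51 stood at 251, 319.8, 343 and 221 CPM in males (-1.39 ± 0.18 SE, adjusted p 1.09e-06) and Idi1 at 41.3, 47.3, 83.5 and 31.2 CPM (-1.92 ± 0.33 SE, adjusted p 7.88e-05), against the WT female values given above. None of these 3 overlapped between the sexes. Insig2, which holds the escort back, went the opposite way, at 194, 172, 193 and 178 CPM in males (1.01 ± 0.14 SE, adjusted p 2.23e-06), higher than every female. Soat2 was the other gene higher in males (0.44, adjusted p 0.00576); it overlapped, and without WT male replicate 4 its adjusted p was 0.0612. Srebf2 (-0.49), Scap (-0.42), Npc1 (-0.68), Npc2 (-0.46) and Stard4 (-0.60) were lower in males. Leaving out 1 library gave 22 to 24 members called, and a fit to the compared groups alone 19, among 1914 calls in 10187 genes.

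In 60-day KO rats 6 of 30 genes were lower in males, where 8.89% of all tested genes were, and 1 was higher, where 9.63% were. Insig2 stood at 73.5, 66.9, 84.9 and 84.0 CPM in KO females and 224, 184, 158 and 179 CPM in KO males (1.27 ± 0.14 SE, adjusted p 8.52e-08), with no overlap. Lower in males were Npc1, at 264, 219.8, 198 and 206 CPM in females and 123, 124, 139 and 110.2 CPM in males (-0.84 ± 0.14 SE, adjusted p 3.85e-05), and Tm7sf2, at 268, 323, 278 and 309 CPM in females and 97.1, 157, 121 and 65.3 CPM in males (-1.42 ± 0.25 SE, adjusted p 0.000122). Both were separate between the sexes, as was Fdps, at 342, 265, 292 and 373 CPM in females and 191, 191, 210.1 and 137 CPM in males (-0.80 ± 0.20 SE, adjusted p 0.00512). These 4 kept their call in each fit that left out 1 library. Hsd17b7 (-0.80), Scap (-0.27) and Npc2 (-0.35) did not. The count ran from 4, without KO female replicate 2 (among 1859 calls in 11096 genes) or KO male replicate 4 (1736 in 11103), to 7. Without KO female replicate 1 it was 7 as well, among 1671 calls in 11068 genes. Hmgcs1, at -1.04 between the sexes in WT (adjusted p 0.00141), was at 0.36 in KO (adjusted p 0.328), and Cyp51 went from -1.39 in WT to -0.28 in KO (adjusted p 0.324). The test of that change is the interaction of sex and genotype given above, which passed for no member. In edgeR fits to the compared groups alone Hmgcs1 was at -1.05 in WT (adjusted p 0.0778) and 0.36 in KO (0.0355).

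At 30 days Insig2 was the 1 member called between the sexes, in WT as in KO. It stood at 92.6, 92.0, 102 and 68.4 CPM in WT females and 152, 117, 125 and 139.8 CPM in WT males (0.58 ± 0.14 SE, adjusted p 0.0196), and at 60.5, 101, 92.2 and 72.5 CPM in females and 116, 116, 118 and 159 CPM in males of the KO rats (0.64 ± 0.14 SE, adjusted p 0.00907). Males were higher than all females of their genotype in both. In WT 1.08% of all tested genes were higher and 0.991% lower in males, and in KO 0.854% were higher and 1.38% lower. The call in WT was lost without WT female replicate 4 (adjusted p 0.103), WT male replicate 1 (0.0866) or WT male replicate 4 (0.0599), and that in KO without KO female replicate 1 (0.0574) or KO male replicate 4 (0.0646).

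**Figure D5:**
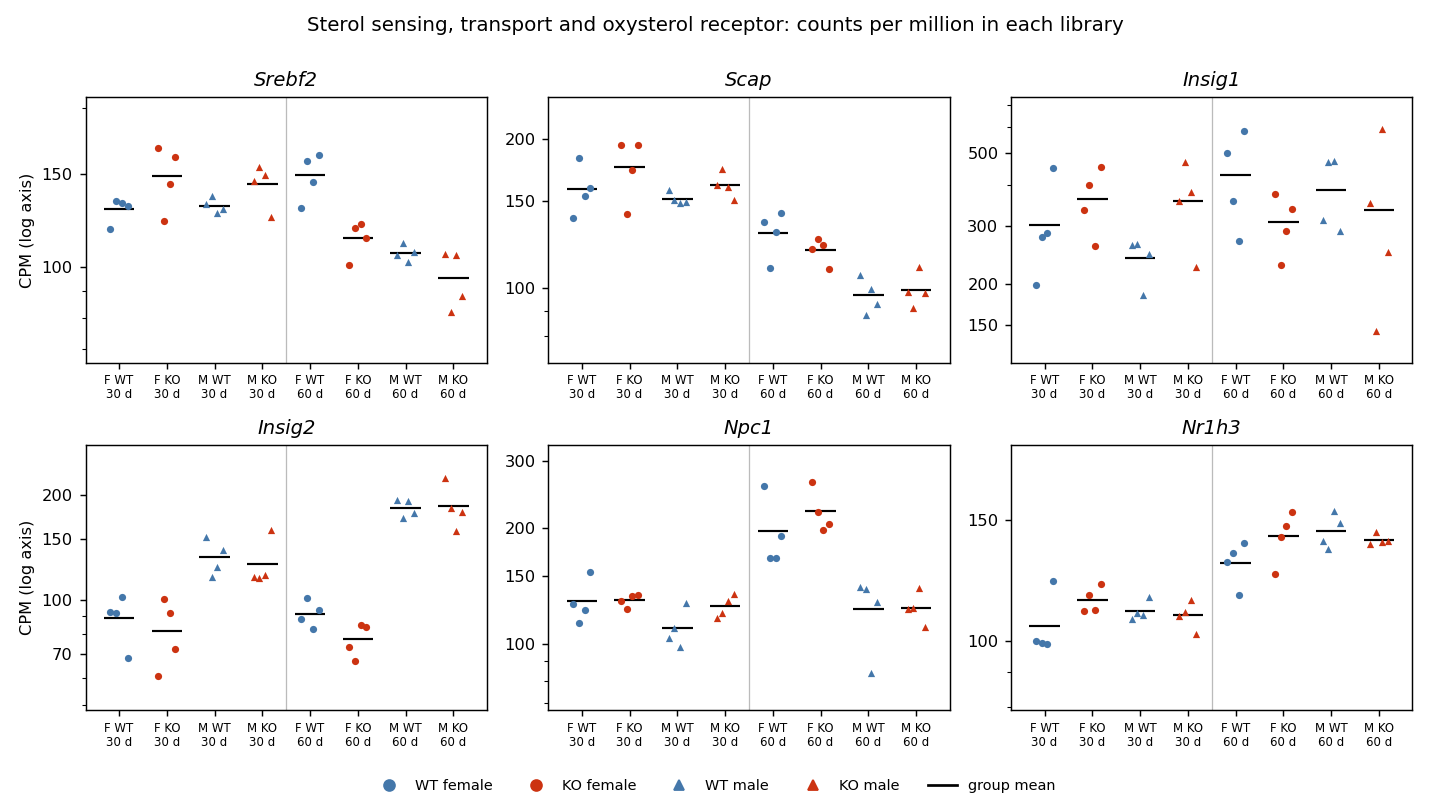
CPM (log axis) of 6 genes of sterol sensing, transport and the oxysterol receptor in each library (circles, females; triangles, males; blue, WT; red, KO; black line, group mean). Insig2 is higher in males at both ages, at 158 to 224 CPM in males against 66.9 to 102 CPM in females at 60 days, and Scap is lower in each group at 60 days than in the matching group at 30 days by its mean.

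Between 30 and 60 days the enzymes were mostly lower at the later age in KO females and in both genotypes of males, and not in WT females. In WT females 4 of 30 genes rose, where 16.0% of all tested genes did, and 1 fell, where 17.1% did. Tm7sf2 rose from 185, 191, 232 and 243 CPM (1.18 ± 0.25 SE, adjusted p 0.000505), Npc1 from 127, 113, 123 and 154 CPM (0.60 ± 0.14 SE, 0.00104), and neither overlapped with the 60-day values above. Npc2, at 94.0, 90.9, 102 and 107 CPM at 30 days and 142, 130.2, 167 and 132 CPM at 60 days, and Nr1h3, at 99.8, 99.2, 99.0 and 122 CPM at 30 days, also rose (0.53 and 0.31). Scap fell (-0.30, adjusted p 0.0147), a call lost without WT female replicate 2 at 30 days (0.09) or replicate 2 at 60 days (0.0803). Hmgcs1 and Idi1, at 0.14 (adjusted p 0.69) and 0.20 (0.675), did not pass.

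In KO females most transcripts of the pathway were lower at 60 than at 30 days. Of the 30 genes 18 fell, where 12.1% of all tested genes did, and 3 rose, where 10.6% did, with 15 of the 19 enzymes among those that fell and an enzyme median of -1.09. Idi1 went from 336, 209, 192 and 289 CPM at 30 days to the low values above (-2.30 ± 0.34 SE, adjusted p 1.18e-05). Hmgcs1 changed by -2.24 (adjusted p 1.72e-07). Dhcr7 started from 494, 362, 414 and 427 CPM (-1.09 ± 0.17 SE, adjusted p 1.28e-05) and Cyp51 from 925, 694, 619 and 800.2 CPM (-1.18 ± 0.18 SE, adjusted p 1.94e-05). All 4 were separate between the ages. Npc1, Npc2 and Nr1h3 rose, by 0.77, 0.48 and 0.31. Without KO replicate 1 at 60 days 20 members were called, 17 lower and 3 higher, among 2207 calls in 11068 genes.

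Males of both genotypes also had lower levels of most enzymes at 60 days. In WT males 14 of 30 genes fell, where 15.8% of all tested genes did, and 3 rose (Insig2, Npc2 and Nr1h3), where 15.7% did. In KO males 20 fell, where 14.5% did, and the same 3 rose, where 14.0% did. The enzymes had medians of -0.65 in WT and -1.26 in KO males. Scap stood at 158, 151, 148 and 149.6 CPM at 30 days and 106, 88.4, 99.8 and 93.0 CPM at 60 days in WT males (-0.65 ± 0.094 SE, adjusted p 3.75e-06) and at 162, 175, 160.4 and 151 CPM at 30 days and 98.2, 91.2, 110.2 and 97.9 CPM at 60 days in KO males (-0.71 ± 0.094 SE, adjusted p 1.09e-06). The ages did not overlap in either. Cyp51 stood at 649, 619.7, 584 and 571 CPM in 30-day WT males (-1.09 ± 0.18 SE, adjusted p 3.4e-05) and at 798, 905, 800.4 and 540.1 CPM in 30-day KO males, with 299.9, 292, 316 and 202 CPM at 60 days (-1.46 ± 0.18 SE, adjusted p 6.33e-07). Acat2 fell in WT males from 41.6, 39.8, 33.4 and 32.2 to 10.7, 12.1, 14.7 and 10.8 CPM (-1.60 ± 0.28 SE, adjusted p 8.22e-05). In KO males Hmgcs1 fell from 2055, 2341, 2119 and 1439.5 CPM (-1.96 ± 0.24 SE, adjusted p 6.34e-07) and Dhcr7 from 428, 464, 439.6 and 304 CPM (-1.26 ± 0.17 SE, adjusted p 1.17e-06) to the 60-day values above. Each was lower in every 60-day than in every 30-day male of its genotype. Nr1h3 rose in WT males from 108, 109.7, 109 and 116 to 139.5, 136, 154 and 148 CPM (0.39 ± 0.07 SE, adjusted p 8.53e-05), again without overlap. Sample titles have another form at each age, so age and any difference in handling between the 2 sets cannot be told apart. The 6 stellate markers summed to 782 to 1357 CPM at 30 days and to 229.7 to 530.2 CPM at 60 days over all groups, and the cholangiocyte markers to 26.4 to 36.8 and 12.1 to 23.3 CPM. The part of either in the age differences was not tested. On the authors' deposited log2 values, which hold no scaling between libraries and shift the median of all genes by -0.12, -0.16, -0.17 and -0.21 in the order of the 4 age comparisons above, limma called 4 higher and 2 lower in WT females, 2 higher and 20 lower in KO females, 1 higher and 20 lower in WT males, and 2 higher and 23 lower in KO males. In the same order it called 3817, 3396, 4026 and 4371 of all 11344 genes, both directions together.

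Across the 8 group means the members differed in how far they moved. Idi1 spanned 6.43-fold, from 39.9 CPM in 60-day KO males to 257 CPM in 30-day KO females, Sqle 5.37-fold, Hmgcs1 4.98-fold, Acat2 4.45-fold and Tm7sf2 4.40-fold. At the other end Mbtps1 spanned 1.12-fold and Ggps1 1.19-fold. Of the 19 enzymes 14 had their highest mean in 30-day KO rats of 1 sex or the other. The other 5, Tm7sf2, Fdps, Ebp, Pmvk and Ggps1, were highest in 60-day WT females, where Tm7sf2 stood at 483 ± 107 CPM.

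Genes around the pathway were counted in 60-day females from lists chosen for their place in it, where 3.48% of all tested genes rose and 3.29% fell. Of 11 tested genes of the isoprenoid branches 1 rose (Fntb, a farnesyltransferase subunit, 0.66) and 1 fell (Nus1, of dolichol synthesis, -0.39). Of 16 genes of sterol uptake, efflux and esters 1 rose, the ester hydrolase gene Nceh1 (1.19, adjusted p 0.0157). Of 5 partners of the sensing machinery 1 rose, Srebf1, which encodes the related factor of fatty acid synthesis (1.35, adjusted p 0.000212). In these 3 lists 0 genes passed for KO against WT in 30-day females, 30-day males or 60-day males. The medians of the lists in 60-day females were 0.0053, -0.074 and 0.049 in that order, beside -0.75 for the 19 enzymes. Between the sexes in 60-day WT rats, Srebf1 was higher in males (1.39, adjusted p 7.57e-06), 1 of 5 in its list, as was Nceh1 (0.91), 1 of 16, where 13.7% of all tested genes were. Of the 16 genes of uptake, efflux and esters 7 were lower in males, where 12.7% of all tested genes were, among them Lipa, the lysosomal lipase (-1.36, adjusted p 3.01e-10), and Lrp1, a remnant receptor (-0.87). Of the 11 isoprenoid genes 3 were higher and 2 lower in males.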

How the data were processed

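Liver messenger RNA of 32 rats was sequenced with a stranded kit, per the labels' protocols. The authors deposited a table of read counts per gene and a table of log2 values. The submitters' processing notes name STAR, Cufflinks, limma and the build Rnor_5.0; roles, versions, annotation and strand setting: not given in the sources used here. Rows that name no gene were left out: reads in no feature were 18.05% to 21.18% and ambiguous reads 0.262% to 0.648% of each library. The deposited log2 table, with 11344 genes, equals log2 CPM over its own genes (0.5 added to counts, 1 to totals) within 5.0e-09 and holds no scaling between libraries.

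Counts were fitted with edgeR 4.0.16 in R 4.3.3 (filterByExpr with a minimum count of 10, TMM scaling, robust quasi-likelihood fit with 1 mean for each of 8 groups over 32 libraries, 24 residual degrees of freedom), and p-values were adjusted by Benjamini-Hochberg over 11002 genes, with calls at 0.05. CPM carries the TMM scaling. The scripts were tested on simulated data. Nothing ties the animals of a group to separate litters or cages, so the p-values measure the spread between these libraries. The members and lists were chosen with earlier results of these data known. Every member may be named; values per library are given for up to 8 called members with the smallest adjusted p in each comparison of genotypes (if none was called, the 3 with the smallest p), up to 4 in each other comparison, and for Srebf2, Scap, Insig1, Insig2, Stard4, Npc1 and Nr1h3. Alternatives were DESeq2 1.42.0 and its size factors, no filter, limma 3.58.1 on the deposited log2 values, a fit to the compared groups, covariates for a clock score and for a number in the titles at 30 days, and leaving out each library. Promoters came from a RefSeq table of build GRCr8, with no coordinates taken over from Rnor_5.0; 25 of 30 members matched by symbol. 1 further list of neighbouring genes is not reported here.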

Additional observations from a re-analysis of the deposited data

Results flagged for a closer look

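In 8 groups of 4 animals, out of 248 tested, 1 animal lay apart from the other 3 by more than Dixon's critical value at the 95% level; chance alone gives about 1 in 20 such groups. Mvd in 30-day KO males was 23.7 CPM in replicate 4, against 53.0 to 56.5 CPM in the other 3, and Insig2 was 159 CPM in the same animal, against 116 to 118 CPM. Fdft1 in 30-day WT females was 203 CPM in replicate 1, against 265 to 271 CPM, Soat2 was 72.7 CPM in replicate 2, against 56.8 to 59.3 CPM, and Nr1h3 was 122 CPM in replicate 4, against 99.0 to 99.8 CPM. Stard4 in 30-day KO females was 60.6 CPM in replicate 3, against 75.4 to 77.0 CPM. Ggps1 in 60-day WT males was 6.86 CPM in replicate 3, against 8.07 to 8.29 CPM. Mbtps2 in 60-day KO females was 5.32 CPM in replicate 1, the animal with retina transcripts, against 3.94 to 4.00 CPM.

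The effect of KO in females differed between the ages by the interaction test of edgeR for 15 genes, each lower at 60 than at 30 days on the log2 scale. Among the early genes the differences were -1.43 for Acat2, -2.38 for Hmgcs1, -1.11 for Mvk, -1.74 for Mvd and -2.50 for Idi1. Fdft1 and Sqle differed by -0.93 and -2.15. After lanosterol the differences were -1.49 for Cyp51, -1.96 for Msmo1, -1.44 for Hsd17b7, -0.62 for Ebp, -0.69 for Sc5d and -1.27 for Dhcr7. Srebf2 and Stard4 differed by -0.61 and -0.81. Adjusted p ran from 0.000309 for Hmgcs1 to 0.0489 for Ebp.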

How the results depend on the processing

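No paired analysis was possible because replicate numbers follow accession order only and tie no animals together. Of 2342 values of members followed under alternatives, which outside the genotype comparisons are those already called, 2136 kept their direction and side of the threshold, 180 kept their direction and lost the call, and 26 changed sign. Over all 30 members and all comparisons 50 calls were gained, 25 of them by leaving out 1 library. For KO against WT in 60-day females 14 members became 2 in a fit to the compared groups, 2 with the clock score as covariate and 6 without the 2 libraries left out together, a choice made after seeing the data. Calls over all genes were also fewer in each of these fits than the 745 of 11002 in the main fit. The interaction of age and genotype in females went from 15 to 8 in a fit to the compared groups and, without those 2 libraries, to 5. Over all genes its calls went from 326 of 11002 to 93 of 10803 and 118 of 11057. In the fit to the compared groups the single sex call at 30 days became 0 in WT and 0 in KO. DESeq2 called 2 members (Hmgcs1 and Cyp51) in the interaction of sex and genotype at 60 days, where edgeR called 0. Fits to the compared groups hold fewer libraries and fewer genes. The main fit shares 1 estimate of the spread per gene over all 8 groups. The median within-group SD of the enzymes was 0.44 on the log2 scale in 60-day WT females and 0.14 to 0.31 in the other groups. The part of this in the lost calls was not tested, nor were other causes.

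Leaving out 1 library gave 10 to 15 members for KO in 60-day females and 0 to 0 for KO in the other 3 combinations of sex and age. The sex comparisons ranged from 0 to 1 at 30 days in WT and likewise 0 to 1 in KO, from 22 to 24 at 60 days in WT and from 4 to 7 in KO. Age ranged from 4 to 7 in WT females, 19 to 22 in KO females, 16 to 18 in WT males and 21 to 23 in KO males. The interactions with sex ranged from 0 to 0 at 30 days and 0 to 5 at 60 days, and those with age from 10 to 15 in females and 0 to 0 in males.

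Among the members followed, the changes of sign concerned genes that were not called. Outside them, Mbtps1 for age in KO males went from 0.018 to -0.17 with limma on the deposited log2 values and was then called (adjusted p 0.0196). In 30-day females Npc1 was -0.0075 with DESeq2 size factors, -0.0069 with DESeq2, -0.0013 in the fit to the compared groups, -0.083 with the title number, -0.15 with the clock score and -0.051 to 0.10 leaving out 1 library. With the clock score Npc1 was -0.12 in 60-day females and -0.027 in 60-day males, and leaving out 1 male library gave -0.13 to 0.086. Nr1h3 in 30-day males was 0.045 with limma and -0.047 to 0.0078 leaving out 1 library, 0.0078 without KO replicate 4. Leaving out 1 library gave -0.021 to 0.11 for Stard4 in 30-day females, -0.19 to 0.0048 for Insig2 in 30-day males and, in 60-day males, -0.086 to 0.087 for Insig2, -0.017 to 0.084 for Scap, -0.29 to 0.068 for Stard4 and -0.64 to 0.043 for Insig1. Depth was at least 12951969 gene reads per library, and 4 animals a group limit the precision.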
